A study of Mus musculus with 6 samples.

Results

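The Id genes Id1, Id2, Id3 and Id4, the transcription factor gene Atoh8 and the feedback genes Smad6, Smad7, Smad9 and Bambi were followed across 6 RNA-Seq libraries of NIH3T3 cells, a mouse embryonic fibroblast line. These 9 genes, of 55401 counted, were taken by name as genes known to respond to bone morphogenetic protein (BMP) signalling. Their levels in the same libraries were known when the set was chosen, so their values are given as a description, with no p-value of their own. Their calls in the fit across all genes are counted beside the share of all genes called. Single calls are named only to show which libraries or settings they rest on. All 9 were among the 18539 genes that passed the filter on low counts, with a lowest count of 190, that of Smad9 in TC.

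BMP ligands bind receptor serine/threonine kinases, which phosphorylate Smad1, Smad5 and Smad9, and these enter the nucleus with Smad4 and bind regulatory DNA. The Id genes are among the most direct targets of the pathway in mesenchymal cells, and their products are helix-loop-helix proteins without a DNA-binding region that hold E-proteins away from DNA. The pathway also limits itself: Smad6 and Smad7 are inhibitory Smads, Bambi is a receptor-like protein without a kinase, and transcription of Smad6, Smad7 and Bambi is raised by the signal they restrain.

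The study asked which transcripts change when NIH3T3 cells carry TAZ-CAMTA1 (TC), a fusion of the coactivator TAZ with CAMTA1 found in epithelioid hemangioendothelioma, and whether aurintricarboxylic acid (ATA), a small molecule studied as a disruptor of TAZ and TEAD binding, turns those changes back. EV cells carried the empty vector and received DMSO (2 libraries), TC cells carried the fusion and received DMSO (1 library), and TC + ATA cells carried the fusion and received 10 μM ATA (3 libraries). All cells were seeded 16 h before treatment and treated for 48 h. No EV cells with ATA were analysed here, so the effect of ATA without the fusion was not measured. TC cells expressed the fusion stably, and whether they were 1 clone or a pool is not given in the sources used here. The labels do not say whether libraries of a group came from separate cultures, so the spread between them may be technical.

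Total counts were 58471484 to 74413193 per library, and a count of 3 corresponded to 0.0403 to 0.0513 counts per 1000000 counts (CPM) before scaling. All 6 fibroblast markers were above 1 CPM on average, with summed levels of 11418 to 13018 CPM in EV, 16173 in TC and 15138 to 16156 in TC + ATA, though Pdgfra (404 and 422 CPM in EV, 180 in TC and 175 to 179 in TC + ATA) and Thy1 (204 and 183, 69.6, and 79.8 to 86.0) fell in TC (edgeR adjusted p = 1.31e-05 and 1.03e-05) and were not called between TC + ATA and TC. The 4 epithelial markers together stayed between 0.105 and 0.494 CPM. The 4 endothelial markers summed to 1.51 to 3.44 CPM, the 4 leukocyte markers to 2.71 to 7.89, the 3 adipocyte markers to 1.35 to 2.34, and the 3 skeletal muscle markers, chiefly Des, to 26.99 to 43.0. No marker of these lists was without counts in every library. In these bulk libraries, fewer cells of a type and less RNA per cell cannot be told apart. Wwtr1, which encodes TAZ, was at 110 and 104 CPM in EV, 139 in TC and 129 to 131 in TC + ATA. Camta1 was at 18.9 and 15.4 CPM in EV, 19.2 in TC and 18.4 to 18.8 in TC + ATA. Reads of the fusion were not separated from those of the mouse genes, so these levels do not measure the fusion. The EV libraries differed from each other more (chi-square per degree of freedom 60.6) than any pair of TC + ATA libraries did (5.90 to 6.58). Between TC and the TC + ATA libraries the same measure was 22.5 to 24.8, also below that between the EV libraries.

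Promoter sequences are shown first because the genes are defined by response to Smads, and 3 of them hold the palindrome GGCGCC, a GC-rich element described for BMP Smads. Sequences were taken from RefSeq (GRCm38.p6), as 250 bases before to 50 bases after a RefSeq start site, for Id2, Id3, Id4, Atoh8, Smad6 and Smad9. Id1, Smad7 and Bambi were not matched. In capitals are GGCGCC in Id2, Id4 and Smad9, and CATTCC, the reverse complement of the TEAD motif GGAATG, in Id3 and Id4. Id2 lies on the minus strand at chr12:25096043-25096342, Id3 on the plus strand at chr4:136143572-136143871, Id4 on the plus strand at chr13:48260866-48261165, and Smad9 on the plus strand at chr3:54755332-54755631. Each sequence reads 5′ to 3′ on the strand of its gene.
Id2 promoter: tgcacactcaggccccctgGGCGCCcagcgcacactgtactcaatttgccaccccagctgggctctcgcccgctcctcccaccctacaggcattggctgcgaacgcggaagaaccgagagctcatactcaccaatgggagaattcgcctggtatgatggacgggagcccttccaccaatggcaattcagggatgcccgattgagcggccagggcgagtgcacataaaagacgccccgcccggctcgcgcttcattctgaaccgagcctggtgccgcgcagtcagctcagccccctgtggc
Id4 promoter: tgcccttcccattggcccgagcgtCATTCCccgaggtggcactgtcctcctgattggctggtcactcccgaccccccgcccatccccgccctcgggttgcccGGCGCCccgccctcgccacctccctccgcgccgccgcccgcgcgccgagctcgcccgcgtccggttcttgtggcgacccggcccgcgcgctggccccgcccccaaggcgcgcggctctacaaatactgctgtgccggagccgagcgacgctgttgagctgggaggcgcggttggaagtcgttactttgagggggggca
Smad9 promoter: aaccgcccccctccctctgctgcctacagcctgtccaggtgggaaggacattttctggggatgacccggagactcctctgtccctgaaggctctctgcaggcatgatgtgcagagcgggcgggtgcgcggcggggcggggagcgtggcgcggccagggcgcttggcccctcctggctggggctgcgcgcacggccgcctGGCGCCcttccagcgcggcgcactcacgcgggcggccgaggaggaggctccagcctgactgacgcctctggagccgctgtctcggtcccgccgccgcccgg
Id3 promoter: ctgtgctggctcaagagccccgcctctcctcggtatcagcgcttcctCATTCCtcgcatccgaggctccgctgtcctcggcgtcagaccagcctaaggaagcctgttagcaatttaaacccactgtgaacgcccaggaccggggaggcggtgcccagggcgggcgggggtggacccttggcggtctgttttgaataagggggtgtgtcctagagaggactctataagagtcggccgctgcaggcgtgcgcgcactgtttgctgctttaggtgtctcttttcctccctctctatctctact

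The GGCGCC match began 231 bases upstream of the start in Id2, 148 in Id4 and 51 in Smad9. That motif occurs in 11.9% of the 32851 promoters in the table. GGAATG, searched on both strands, occurs in 14.7% of promoters, and its matches began 203 bases upstream in Id3 and 226 in Id4. The longer element GNCGNCNNNNNGTCT, whose last 4 letters are the Smad box GTCT, occurs in 0.667% of promoters and matched Smad6, on the minus strand of chromosome 9, in the 15 bases that end at the start site (GCCGCCAAAGTGTCT). GTCT alone is in 88.0% of promoters and in Id2, Id3, Smad6 and Smad9. None of the 4 motifs was found in the Atoh8 window. These promoters had a GC content of 60% to 73.7% and 19 to 39 CpG sites, against medians of 52.7% and 7 over all promoters. The matches are letters in a window, and binding was not measured.

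All 4 Id genes were higher in every TC + ATA library than in TC, by 0.85 to 1.14 on the log2 scale. Of these, 3 (Id1, Id2 and Id4) were lower in TC than in both EV libraries. Over all genes tested, 30.5% were higher in every TC + ATA library than in TC, and 40.0% were lower in TC than in both EV libraries. Id1 was at 53.7 and 45.1 CPM in the EV libraries, 31.3 in TC and 66.4, 65.5 and 71.6 in TC + ATA. The groups did not overlap, and the order was TC, EV, TC + ATA. Against EV, Id1 had a log2 fold change of −0.66 in TC (SE 0.12, 95% interval −0.92 to −0.39), and TC + ATA stood 1.11 above TC (SE 0.12, 95% interval 0.85 to 1.38) on the same scale.

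Id2, which is also known for holding back differentiation in several lineages, had with Id4 the largest TC differences of the Id genes. Its levels were 84.2 and 85.8 CPM in EV, 29.8 in TC and 51.0, 55.8 and 62.5 in TC + ATA. The ATA-treated libraries lay between TC and EV without reaching either group. The log2 fold change was −1.51 for TC against EV (SE 0.12, 95% interval −1.79 to −1.23) and 0.92 for TC + ATA against TC (SE 0.12, 95% interval 0.66 to 1.18).

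Id3 was the most abundant Id transcript and had a different course. It was at 111 and 99.4 CPM in EV, 101 in TC and 188, 176 and 182 in TC + ATA. TC lay between the EV libraries, and all 3 TC + ATA libraries were above every other library. The log2 fold change of TC against EV was −0.06 (SE 0.09, 95% interval −0.27 to 0.15), whereas that of TC + ATA against TC was 0.85 (SE 0.09, 95% interval 0.64 to 1.06).

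Id4, the least abundant of the Id genes, followed Id2 in TC and came nearer to EV with ATA. Its levels were 21.6 and 21.7 CPM in EV, 7.97 in TC and 16.2, 17.7 and 18.6 in TC + ATA. Every TC + ATA library was above TC and below both EV libraries. The log2 fold change was −1.44 in TC against EV (SE 0.13, 95% interval −1.72 to −1.16) and 1.14 in TC + ATA against TC (SE 0.12, 95% interval 0.87 to 1.41). Antisense genes overlap 171 of the 3849 exonic bases of Id4, and whether the counting used strand is not given in the sources used here.

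Atoh8 encodes a basic helix-loop-helix factor that is induced by BMP in several cell types. It was at 27.2 and 24.9 CPM in EV, 11.4 in TC and 28.2, 26.4 and 26.96 in TC + ATA. The ATA-treated libraries overlapped the EV libraries, and TC lay below all 5 of them. Its log2 fold change was −1.19 in TC against EV (SE 0.11, 95% interval −1.44 to −0.94) and 1.25 in TC + ATA against TC (SE 0.10, 95% interval 1.01 to 1.49).

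Among the feedback genes, Smad6 and Smad9 were higher in TC + ATA than in TC, whereas Smad7 and Bambi overlapped TC. Smad6, an inhibitory Smad that acts mainly on BMP receptors, was at 16.9 and 17.8 CPM in EV, 15.5 in TC and 26.0, 26.9 and 24.2 in TC + ATA. TC was just under the EV libraries, with a log2 fold change of −0.16 (SE 0.11, 95% interval −0.41 to 0.08), and TC + ATA was above all others. The log2 fold change of Smad6 in TC + ATA against TC was 0.73 (SE 0.10, 95% interval 0.50 to 0.97).

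Smad7, the inhibitory Smad that also restrains TGF-β and activin receptors, was at 23.3 and 26.0 CPM in EV, 31.7 in TC and 29.6, 30.3 and 32.4 in TC + ATA. It was the only one of the 9 genes for which TC lay above both EV libraries. The log2 fold change of Smad7 was 0.37 in TC against EV (SE 0.10, 95% interval 0.13 to 0.60) and −0.04 in TC + ATA against TC (SE 0.10, 95% interval −0.27 to 0.18). The 2 inhibitory Smads thus did not move together, and their ratio within a library, which needs no scaling between libraries, gives the same picture. Per length, Smad6 stood to Smad7 at 1.02 and 0.967 in EV, 0.688 in TC and 1.24, 1.25 and 1.05 in TC + ATA.

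Smad9, a receptor-regulated Smad whose own transcription is raised by BMP, was the scarcest of the 9 genes. Its levels were 5.0 and 3.82 CPM in EV, 2.74 in TC and 7.58, 7.26 and 8.02 in TC + ATA. The 3 groups did not overlap, in the order TC, EV, TC + ATA, as for Id1. Its log2 fold change was −0.69 in TC against EV (SE 0.20, 95% interval −1.15 to −0.23). Between TC + ATA and TC it was 1.48 (SE 0.20, 95% interval 1.03 to 1.93), the largest of the set. Smad9 made up 8.01% and 5.90% of the summed per-length level of Smad1, Smad5 and Smad9 in EV, 4.80% in TC and 12.6%, 11.9% and 13.8% in TC + ATA.

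Bambi, the pseudoreceptor, was at 11.3 and 9.17 CPM in EV, 10.5 in TC and 8.78, 11.2 and 9.53 in TC + ATA, and all 3 groups overlapped. The log2 fold change was 0.03 in TC against EV (SE 0.18, 95% interval −0.37 to 0.44) and −0.09 in TC + ATA against TC (SE 0.17, 95% interval −0.47 to 0.29). The intervals leave room for changes of the size of those of Smad7.

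**Figure D1:**
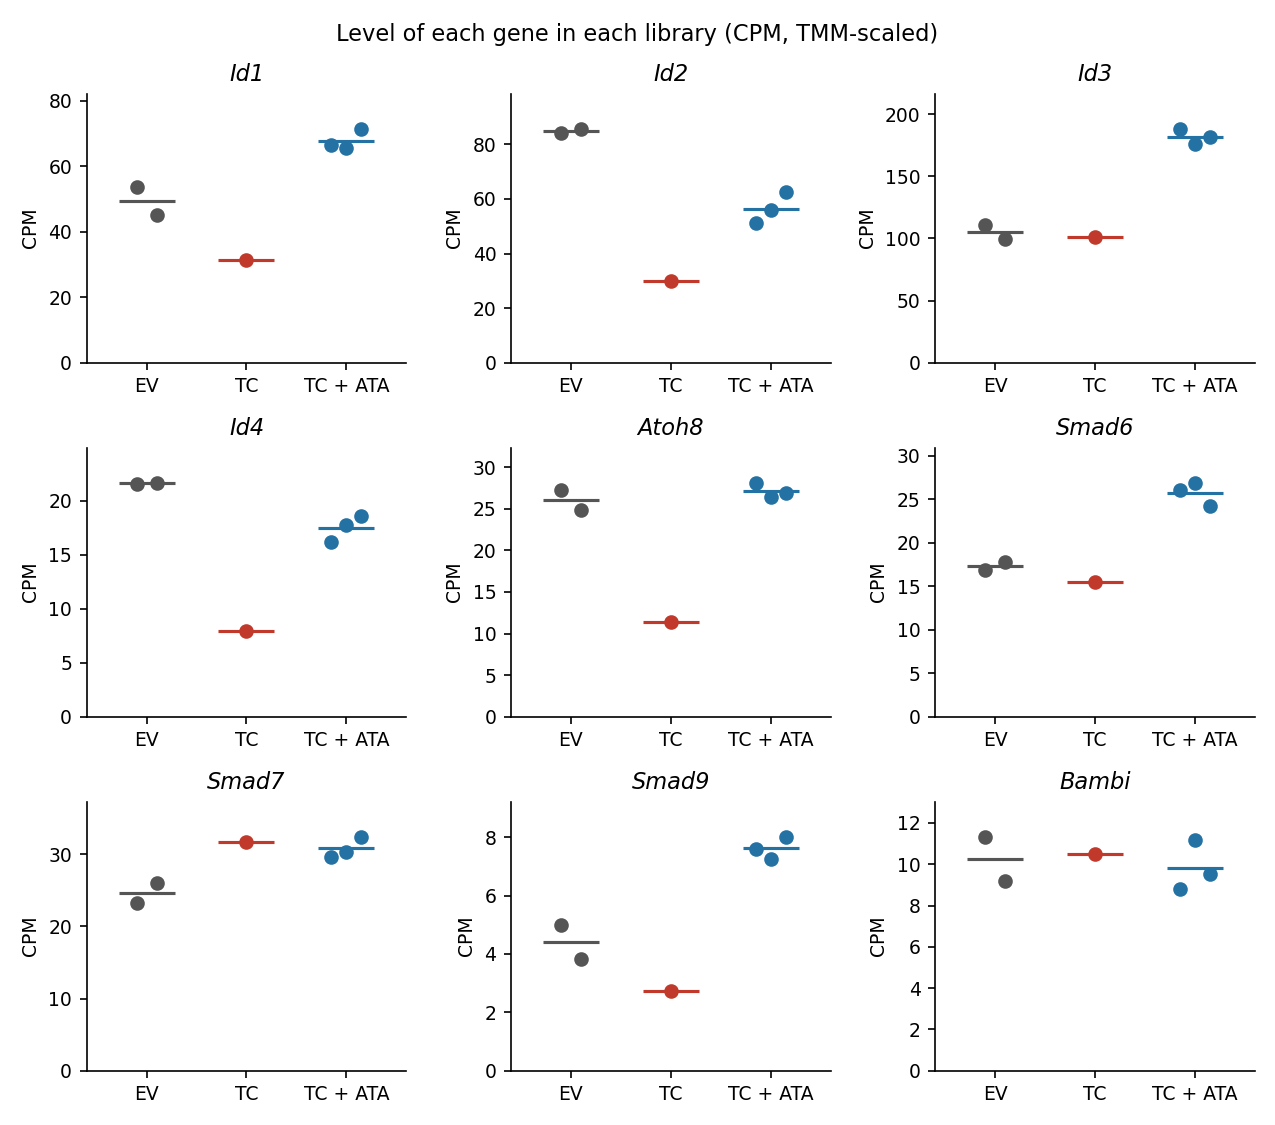
Level of each gene in each library in CPM after TMM scaling, with 1 panel per gene and axes that start at 0; points are the 2 EV, 1 TC and 3 TC + ATA libraries. TC is the lowest library for Id1, Id2, Id4, Atoh8, Smad6 and Smad9, and TC + ATA is the highest group for Id1, Id3, Smad6 and Smad9.

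**Figure D2:**
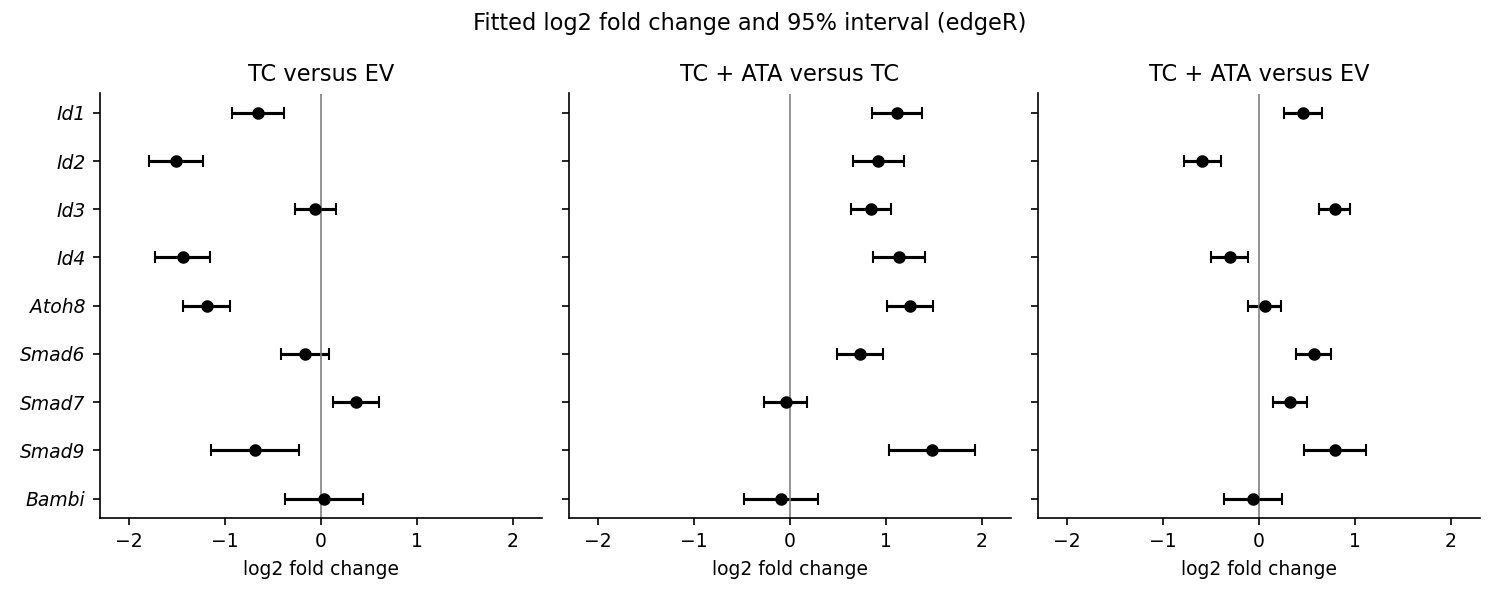
Fitted log2 fold change of each gene with its 95% interval, 1 panel per comparison. With ATA, the genes spread from −0.09 for Bambi to 1.48 for Smad9 relative to TC. Relative to EV they spread from −0.59 for Id2 to 0.79 for Id3 and Smad9.

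Whether each gene returned to its EV level with ATA was then read from the TC + ATA and EV libraries. Atoh8 did so most closely, at 104% of its EV mean against 43.9% in TC, with a log2 fold change from EV of 0.06 (SE 0.08, 95% interval −0.11 to 0.23). Id4 came to 81.0% of EV from 36.8%, and Id2 to 66.4% from 35.1%, and both stayed below the EV libraries with log2 fold changes of −0.30 (95% interval −0.50 to −0.11) and −0.59 (95% interval −0.78 to −0.40). These 3 genes had the largest differences between TC and EV. Each TC level, here and below, is that of 1 library.

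Other genes passed their EV level. Id1 reached 137% of EV, a log2 fold change of 0.46 (95% interval 0.26 to 0.65), from 63.4% in TC. Smad9 reached 173% of EV, a log2 fold change of 0.79 (95% interval 0.46 to 1.12), from 62.1% in TC. On the log2 scale Smad9 thus stood slightly further from EV with ATA (0.79, SE 0.14) than in TC (0.69, SE 0.20). Id1 stood nearer, at 0.46 with ATA and 0.66 in TC. Id3 and Smad6, which in TC stood at 96.1% and 89.2% of EV, reached 173% and 148%, so these transcripts stood further from EV with ATA than without. Smad7 was at 125% of EV with ATA and 129% without, and Bambi was at 95.8% and 102%. In all, TC + ATA was above both EV libraries for 5 genes and below both for 2 (Id2 and Id4), beside 28.7% and 30.1% of all genes tested. The groups overlapped for 2 (Atoh8 and Bambi).

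Set against all genes, 5 of the 9 were called lower (adjusted p of at most 0.05, edgeR) and 1 higher in TC against EV, where 13.2% of the genes tested were called lower and 14.8% higher. With ATA, 7 were called higher and 0 lower than in TC, where 0.426% of genes were called higher and 0.156% lower. In TC + ATA against EV, 5 were called higher and 2 lower, where the shares were 18.0% and 18.6%. TC lay below both EV libraries for 6 of the 9 and above both for 1, which over all genes happened for 40.0% and 38.9%. Every TC + ATA library was above TC for 7 and below it for 0, against 30.5% and 32.7% of all genes, and the same for TC + ATA against EV was 5 and 2, against 28.7% and 30.1%. The median log2 fold change of the 9 genes was −0.66, 0.92 and 0.32 in the 3 comparisons, and that of all genes tested was −0.03, 0.00 and −0.01. These contrasts were used to choose the genes, so the counts are not support for a response of the set.

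The calls in TC + ATA against TC depended on the ATA libraries. The genes were chosen with these contrasts known, and leaving out a library does not undo that choice. A call that stood is therefore not support for a response of its gene. All 7 (Id1, Id2, Id3, Id4, Atoh8, Smad6 and Smad9) stood without either EV library, but 5 stood without TC + ATA replicate 1, 4 without replicate 2 and 1, that of Atoh8, without replicate 3. Over all genes the same count, 79 with every library, was 707 and 808 without EV replicate 1 and 2, and 28, 21 and 7 without TC + ATA replicate 1, 2 and 3. In TC against EV, the calls of Smad7 and Smad9 were lost without any 1 of the TC + ATA replicates and in the fit of EV and TC only. That of Smad9 was also lost without EV replicate 1. Against EV with ATA, the call of Id4 was lost without TC + ATA replicate 1 or 2, and that of Smad7 without replicate 3. Under the alternatives run, the log2 fold change in TC + ATA against TC stayed between 1.08 and 1.14 for Id1, between 0.80 and 0.99 for Id2 and between 1.44 and 1.55 for Smad9. In TC against EV it ranged from −0.78 to −0.54 for Id1, from −0.87 to −0.49 for Smad9 and from 0.25 to 0.44 for Smad7. For Smad9 in TC + ATA against EV it ranged from 0.62 to 0.98. All alternatives kept the only TC library, so no range covers variation between TC libraries.

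Per length of exon, the order of the genes shifted with TC and with ATA. In EV the levels were 58.8 RPKM (CPM per kilobase of exon) for Id3, 42.6 for Id1, 34.9 for Id2 and 10.4 for Atoh8. Id4 (5.62), Smad7 (5.44) and Smad6 (5.41) followed with neighbouring ranges that overlapped, and Bambi (2.02) and Smad9 (0.821) were lowest. In TC, Smad7 (7.01) and Smad6 (4.83) stood above Atoh8 (4.56), while Id4 and Bambi were level at 2.07. With ATA, Atoh8 (10.8) was again above Smad6 (8.03), Smad7 (6.81) and Id4 (4.55), and no neighbouring ranges overlapped. Id3, Id1 and Id2 held the highest 3 places in each group.

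**Figure D3:**
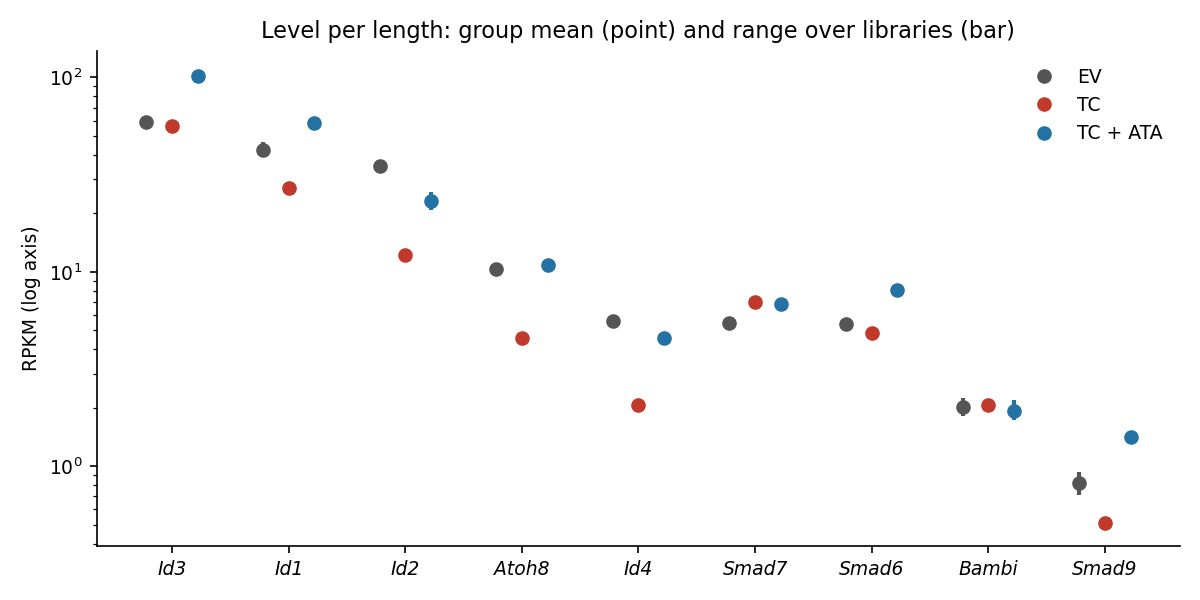
Level per length in RPKM on a log axis for each gene, ordered by the EV mean; points are group means and bars the range over libraries, with EV in grey, TC in red and TC + ATA in blue. Id3, Id1 and Id2 are the highest in each group, and Smad9 the lowest.

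The composition of the Id pool within a library needs no scaling between libraries. Id2 made up 23.3% and 26.0% of the summed per-length Id level in EV, 12.5% in TC and 11.2%, 12.6% and 13.3% in TC + ATA. Id3 made up 41.8% and 41.1% in EV, 57.8% in TC and 56.1%, 53.9% and 52.4% in TC + ATA. For Id2 and Id3 the shares in TC + ATA were near that of TC and apart from those of EV. The Id1 share was 31.2% and 28.7% in EV, 27.6% in TC and 30.5%, 31.0% and 31.9% in TC + ATA, where it lay above TC and overlapped EV. The summed level was 149 and 135 RPKM in EV, 97.8 in TC and 188, 182 and 194 in TC + ATA. The ratio of Id3 to Id2 was 1.80 and 1.58 in EV, 4.62 in TC and 5.02, 4.30 and 3.95 in TC + ATA.

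**Figure D4:**
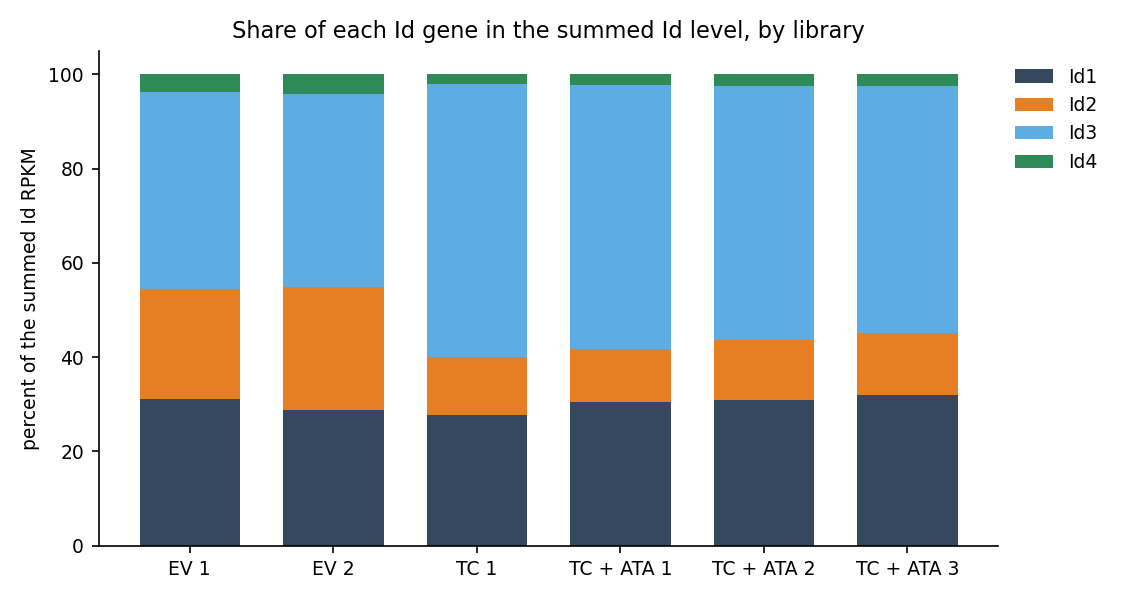
Share of each Id gene in the summed Id level of its library, in percent of the summed RPKM, with 1 stacked bar per library. Id2 takes 23.3% and 26.0% in EV and between 11.2% and 13.3% in the 4 libraries with the fusion.

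The other genes of the pathway were read from 8 lists by role, 62 genes in all, of which 48 were tested. In TC against EV, 10 rose and 15 fell (edgeR, adjusted p of at most 0.05), beside 14.8% and 13.2% of all genes tested. Between TC + ATA and TC, 0 rose and 0 fell, with 3 higher and 3 lower at an unadjusted p under 0.05, and DESeq2 called 0 higher and 1 lower, Rgmb, a BMP co-receptor. Without either EV library, 1 of these genes (Bmper) was called higher and 2 (Rgmb and Smurf2) lower in that comparison. In TC + ATA against EV, which shares libraries with the other comparisons, 15 rose and 17 fell, beside 18.0% and 18.6% of all genes. The median log2 fold change of the 48 was −0.04 in TC against EV and 0.00 in TC + ATA against TC. For the Id and feedback genes the latter was 0.92. They were chosen with that comparison known, so the difference between the medians is not support for a response of the set.

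BMP ligand transcripts were scarce. Of 13, only 5 were tested and 0 were called in TC against EV or in TC + ATA against TC, and Bmp10 and Gdf2 had no counts in any library. Gdf5, the highest by mean RPKM over all libraries, was at 0.642 and 0.498 CPM in EV, 0.202 in TC and 0.264, 0.310 and 0.0719 in TC + ATA (log2 fold change −1.49 in TC against EV, SE 0.82, edgeR adjusted p = 0.218). An antisense gene overlaps 936 of its 2320 exonic bases. Bmp6, below 0.5 CPM throughout, was the only ligand called against EV with ATA, where its log2 fold change was 2.74 (SE 0.70, edgeR adjusted p = 0.0140). That call was lost without EV replicate 2 or TC + ATA replicate 2, and it rests on EV counts of 6 and 2. An antisense gene overlaps 224 of the 3900 exonic bases of Bmp6.

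Of the 7 receptors, Acvrl1, Bmpr2 and Acvr2a rose in TC and 0 fell. Acvrl1, a type I receptor best known in endothelium, was at 0.936 and 0.590 CPM in EV, 6.19 in TC and 5.26, 5.59 and 4.77 in TC + ATA. Its log2 fold change was 3.02 in TC against EV (SE 0.25, edgeR adjusted p = 3.24e-05) and −0.25 in TC + ATA against TC (adjusted p = 0.783), and an antisense gene overlaps 127 of its 4265 exonic bases. Bmpr1a, the most abundant receptor, had a log2 fold change of 0.16 in TC against EV (SE 0.08, adjusted p = 0.189). Among the 5 co-receptors, Rgma, Rgmb and Tgfbr3 fell in TC, and Tgfbr3, the highest by mean RPKM over all libraries although Rgmb was higher in EV, had a log2 fold change of −0.56 (SE 0.09, edgeR adjusted p = 0.00198). The signalling Smads Smad1, Smad5 and Smad4 were not called in any of the 3 comparisons of the main fit. Smad4 had log2 fold changes of −0.17 in TC against EV (SE 0.09, 95% interval −0.36 to 0.03, edgeR adjusted p = 0.189) and 0.01 in TC + ATA against TC (SE 0.08). With library size alone as the scaling, Smad4 was called lower in TC against EV, and Smad4 and Smad5 in TC + ATA against EV. Smad5 was also called lower in TC + ATA against EV with upper quartile scaling. The EV libraries mattered too: without EV replicate 1, Smad1 and Smad5 were called lower in TC + ATA against EV. Without EV replicate 2, Smad4 was called lower against EV in both TC and TC + ATA.

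Secreted antagonists, which bind BMPs or activins outside the cell, were called in 10 of 12 cases tested: 3 rose and 7 fell in TC, where 14.8% of all genes rose and 13.2% fell. Fstl3 rose by a log2 fold change of 2.01 (SE 0.08, edgeR adjusted p = 7.75e-07), Nbl1 by 2.16 (SE 0.15, adjusted p = 1.02e-05) and Grem1 by 1.08 (SE 0.21, adjusted p = 0.00527). Bmper had a log2 fold change of −1.50 (SE 0.12, edgeR adjusted p = 3.15e-05), Fst one of −1.29 (SE 0.31, adjusted p = 0.0134), Dand5 one of −1.05 (SE 0.25, adjusted p = 0.0121) and Fstl1, the most abundant, one of −0.92 (SE 0.09, adjusted p = 0.000119). Chrdl1 had counts of 24 and 23 in EV and 1 in TC, a ratio of 0.0430 (95% exact interval 0.00107 to 0.252, counting error only). The call of Chrdl1 was lost with DESeq2. With ATA these genes were not called against TC, with Bmper the nearest, at a log2 fold change of 0.53 (SE 0.12, edgeR adjusted p = 0.109). Reads of Fstl3 may include those of the antisense gene Prss57, which overlaps 1157 of its 2445 exonic bases.

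Inside the cell, 3 of the 6 other negative regulators rose in TC and 2 fell. Ski, a corepressor of Smads and the highest of these by mean RPKM over all libraries, rose by a log2 fold change of 0.30 (SE 0.09, edgeR adjusted p = 0.0312), and its difference between TC + ATA and TC was 0.12 (SE 0.08, adjusted p = 0.709). The Ski call in TC was lost with library size alone, in the fit of EV and TC only, and without any 1 of the TC + ATA replicates. Of 7 other BMP-inducible genes tested, 1 rose in TC, the homeobox gene Dlx2, with a log2 fold change of 1.25 (SE 0.10, edgeR adjusted p = 2.99e-05). Dlx2 was at 14.4 and 16.5 CPM in EV, 36.9 in TC and 37.6, 35.7 and 36.2 in TC + ATA, so that the ATA-treated libraries overlapped TC. The E-proteins, the partners that Id proteins bind, fell in TC in all 3 cases: Tcf3, the highest, had a log2 fold change of −0.55 (SE 0.09, edgeR adjusted p = 0.00141). The call of Tcf12 was lost in the fit of EV and TC only. With ATA, the log2 fold changes of Tcf3, Tcf4 and Tcf12 against TC were −0.02, 0.05 and 0.01 (SE 0.08, 0.10 and 0.08). The 4 Id genes, which were chosen with this comparison known, stood 0.85 to 1.14 above TC.

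**Figure D5:**
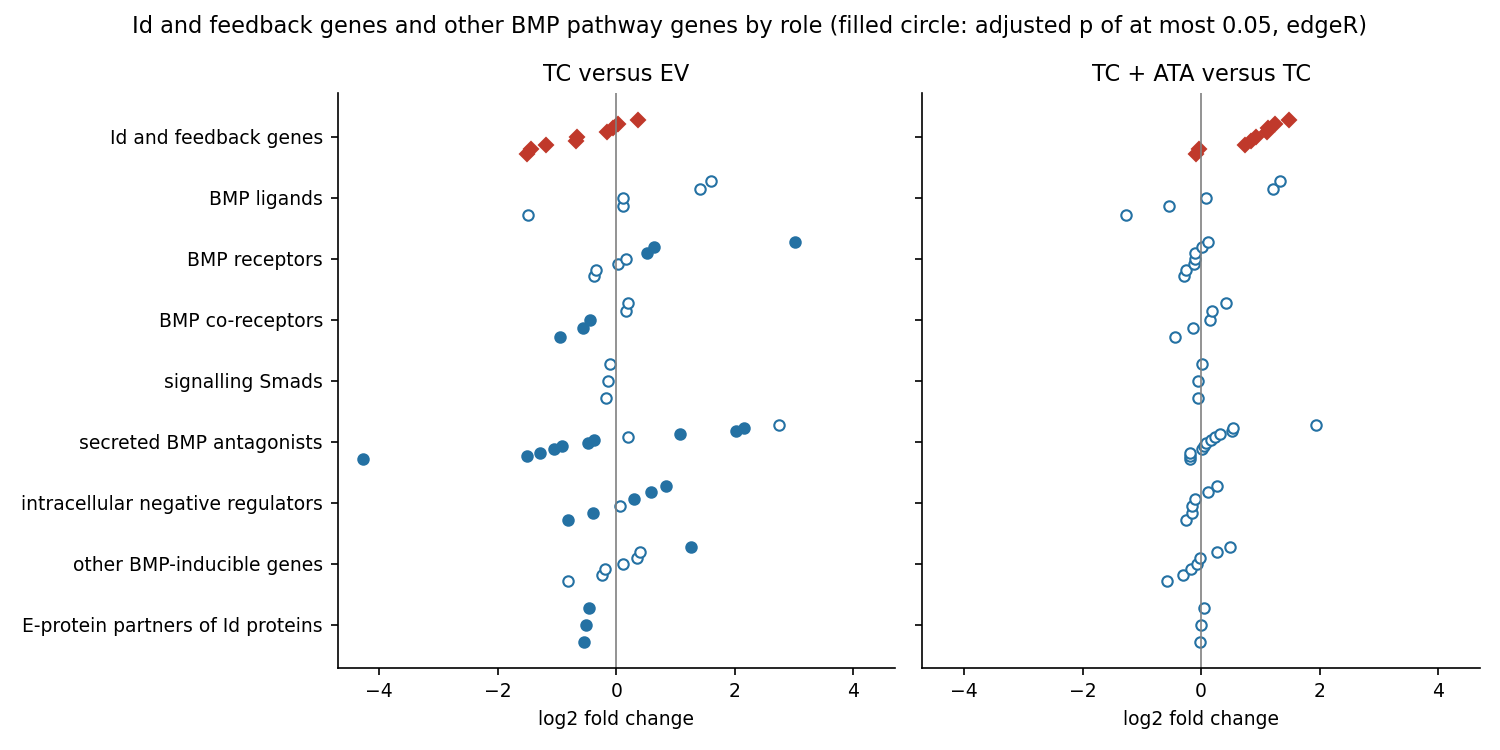
Log2 fold change of the tested genes of each role in TC against EV (left) and TC + ATA against TC (right), with the Id and feedback genes as red diamonds, which carry no test mark, and the other pathway genes as blue circles; filled circles have an adjusted p of at most 0.05 (edgeR). On the right, 0 of 48 circles are filled.

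The genes whose pair of log2 fold changes (TC against EV, and TC + ATA against TC) lay nearest to those of each Id or feedback gene were found by Euclidean distance between the pairs. The search covered 10424 genes with a mean of at least 5 CPM. Both log2 fold changes of a pair rest on the only TC library, so its deviations enter both. Nearest to Id1 were Mybpc1 (distance 0.25), Cyp1b1 (0.29) and Fhl1 (0.31). Nearest to Id3 were Ckmt2 (0.08), Nrap (0.13) and Nrxn2 (0.14), and nearest to Smad9 were Myh2 (0.20), Id1 itself (0.36) and Fhl1 (0.38). The other 6 genes had neighbours of many kinds. Those of Id2 were Tmem119 (0.03), Maf (0.16) and Thbs2 (0.16), those of Id4 were Irf5 (0.18), Tmem119 (0.21) and Id2 (0.23), and those of Atoh8 were Daam2 (0.14), Irf5 (0.18) and Fhl1 (0.24). Smad6 lay nearest to Coq8a (0.04), Rcan2 (0.13) and Ckmt2 (0.13). Smad7 and Bambi, whose differences were small, had neighbours within 0.01, which were Amd2, Tbc1d15 and Adrm1 for Smad7 and Smarcad1, Hars and Ecpas for Bambi. A list of 17 fast skeletal muscle genes, made after these values were seen, summed to 1934 and 1408 CPM in EV, 1919 in TC and 2762, 2297 and 2199 in TC + ATA. Its part in the levels of the Id and feedback genes was not tested.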

How the data were processed

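Poly(A) RNA of NIH3T3 cells was sequenced in 6 libraries with paired ends (NEBNext Ultra II library kit, Illumina). The authors aligned reads to GRCm38.p6 with HISAT2 (2.2.1, mm10 in the submitters' processing notes) in Galaxy and deposited raw counts per Ensembl gene. The annotation release and strand setting are not given in the sources used here. Gene symbols and exon lengths came from GENCODE M21, which named 55141 of 55401 IDs, and total counts of 58471484 to 74413193 per library set the precision.

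Counts were fitted with edgeR 4.0.16 (limma 3.58.1, R 4.3.3), using the quasi-likelihood test after TMM scaling and filterByExpr, with all 6 libraries in 1 fit and no covariate. TC has 1 library, so its spread was assumed to equal that of EV and TC + ATA. Adjusted p-values are Benjamini-Hochberg values over 18539 genes, called at 0.05 or less. SEs and 95% intervals came from the same fit. CPM values are TMM-scaled, and RPKM divides CPM by union exon length. DESeq2 1.42.0, other scalings, a fit without the filter, a fit of the compared groups only, a replicate block and leaving out each replicate were alternatives. The scripts were tested on simulated data.

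The genes and lists were chosen with earlier results of these data known. Named pathway genes were those called in TC + ATA against TC, those called in TC against EV with an absolute log2 fold change of at least 1, and the highest of each list by mean RPKM. Bmp6, Bmp10, Gdf2, Bmpr2, Acvr2a, Rgma, Rgmb, Smad1, Smad5, Smurf2, Tcf4, Tcf12, Twsg1, Skil, Pdgfra, Thy1, Wwtr1, Camta1 and the muscle genes are named outside this rule, after their values were seen. For genes alike in pattern, the rule named the 3 nearest to Id1, Id3 and Smad9, and those of the other 6 genes were added after their values were seen.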

Additional observations from a re-analysis of the deposited data

How the results depend on the processing

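Of 324 values of single Id and feedback genes under alternatives, 304 moved by no more than the SE of the main fit and 20 by more. In 23 of 27 pairs of gene and comparison the direction held under every alternative, the exceptions being Id3 in TC against EV, Bambi in both comparisons with EV and Atoh8 in TC + ATA against EV, none of which was called. With library size alone as the scaling, the median of all genes shifted by −0.11 in TC against EV, the Smad7 call was lost (0 Id and feedback genes higher), and the genes called were 2072 higher and 3159 lower in place of 2735 and 2456. In TC + ATA against EV the same scaling gave 2711 and 4384 in place of 3340 and 3449, and Atoh8 there had a log2 fold change of −0.03.

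In TC + ATA against TC, 79 genes were called higher and 29 lower; these became 242 and 108 without the filter, 236 and 85 with DESeq2, and 795 and 633 in a fit of the 2 groups compared. Of the other pathway genes there, 1 was lower without the filter or with DESeq2, and 1 was higher and 2 lower in the fit of the 2 groups, where 0 Id and feedback genes were higher in TC against EV. With an absolute log2 fold change of at least 2 required, 438 genes were higher and 236 lower in TC against EV, 2 and 8 in TC + ATA against TC, and 520 and 197 in TC + ATA against EV. The Id and feedback genes called then fell to 0 in each comparison, and the other pathway genes to 3 higher and 1 lower against EV in both TC and TC + ATA.

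Leaving out 1 replicate gave 7 to 808 genes higher and 3 to 762 lower in TC + ATA against TC, with 1 to 7 Id and feedback genes higher, and with 0 to 1 other pathway gene higher and 0 to 2 lower. The high counts came without an EV library and the low ones without a TC + ATA library. It gave 1912 to 3708 genes lower in TC against EV, 0 to 1 Id and feedback gene higher there and 1 to 2 lower in TC + ATA against EV. Replicate numbers gave no sign of pairing, with correlations of deviations of −0.0290 and −0.0861. With the replicate block, 1717 genes were higher and 1467 lower in TC against EV, 32 and 8 in TC + ATA against TC, and 2450 and 2195 in TC + ATA against EV. Under the block, 0 Id and feedback genes were higher in TC against EV, 5 in TC + ATA against TC, and 1 was lower in TC + ATA against EV. The calls of Twsg1, Chrdl1, Dand5, Ski, Skil and Tcf12 in TC against EV were lost under it. The cause of these moves was not tested. TC rests on 1 library, so no value here separates that library from the condition.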

Other observations

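Transcripts of fast skeletal muscle were present in every library of this fibroblast line. The 17 genes, listed after their values were seen, summed to 0.193% and 0.141% of the TMM-scaled library size in EV. The same share was 0.192% in TC and 0.276%, 0.230% and 0.220% in TC + ATA. Myh4, a fast myosin heavy chain, ranged from 364 to 683 CPM. Against TC, Myh2 and Mb, the myoglobin gene, rose with ATA, with log2 fold changes of 1.42 (edgeR adjusted p = 0.0180) and 1.05 (adjusted p = 0.0488), and the other 15 were not called. Against EV, 15 of 17 rose in TC + ATA, where 18.0% of all genes rose. In TC against EV, 0 were called at an adjusted p of at most 0.05, with 2 at an unadjusted p under 0.05 and 1 called by DESeq2, where 14.8% of all genes rose, and the difference between these comparisons was not tested.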
